A study of Mus musculus with 12 samples.

Results

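The circadian clock was followed through 10 of its core genes, Arntl, Clock, Per1, Per2, Per3, Cry1, Cry2, Nr1d1, Nr1d2 and Dbp, in cultured murine cardiomyocytes under 4 conditions. The genes were taken by their symbol from a table of 22915 genes. All 10 were among the 13184 genes tested, for which 3 or more libraries had to reach a normalized count of 10, and the lowest value of any of them in any library was 57, for Dbp. Primary cardiomyocytes of adult male C57/Bl6 mice aged 12 weeks were kept in normoxia for 24 h with PBS, the solvent of the proteins, or with 25 ng/mL of a recombinant cytokine, which was leukemia inhibitory factor of the mouse (mLIF), oncostatin M of the mouse (mOSM) or a human-like oncostatin M (hlOSM). The dose is that of the sample descriptions, and the study's methods give a somewhat lower one. mLIF signals through the LIF receptor (LIFR) and mOSM through the OSM receptor (OSMR), while hlOSM, which is murine OSM with the AB loop of the human protein, signals through both. Each condition had 3 libraries, 12 in all, and no allele or transgene is named for the mice. None of the sources used here says whether the libraries of a condition came from separate animals, so that the p-values measure the spread between libraries, which may be technical.

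The mammalian clock is a loop of transcription and feedback. The proteins of Arntl (BMAL1) and Clock bind E-boxes as a heterodimer and switch on the period (Per), cryptochrome (Cry), Nr1d and Dbp genes. PER and CRY proteins then return to the nucleus and repress that heterodimer. REV-ERB alpha and REV-ERB beta, the products of Nr1d1 and Nr1d2, repress Arntl by competing with ROR receptors for the same elements, and DBP, a PAR bZIP factor, activates genes with D-boxes. Cardiomyocytes hold a clock of their own, which is known to set daily rhythms of metabolism and ion channel expression in the heart. The abundance of most of these transcripts changes with the time of day, and the data hold only 1 time point. The time of day of isolation, treatment or harvest is not given in the sources used here, so that a shift in phase and a change in mean level cannot be told apart.

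Values are counts that the authors normalized between libraries and rounded. They are not per gene length. Library totals ran from 2745748 to 2911891 on this scale, which does not count sequenced reads, so that the depth of a value is unknown. The SD of log2 values within a condition was lowest for Nr1d2 (0.0544) and Clock (0.0660) and highest for Dbp (0.213), against a median of 0.131 over all genes tested. Cardiomyocyte markers were present, since all 8 on the list were found in every condition. The sum of these 8 normalized counts lay between 18100 and 19894 in PBS, 15630 and 17479 in mLIF, 14225 and 16739 in mOSM, and 14843 and 15390 in hlOSM. Markers of other cells moved as well. The sum of 8 smooth muscle and pericyte markers lay between 956 and 1203 in PBS, 892 and 949 in mLIF, 677 and 731 in mOSM, and 618 and 638 in hlOSM. The sum of 8 endothelial markers lay between 1188 and 1262 in PBS, 1201 and 1266 in mLIF, 1471 and 1700 in mOSM, and 1477 and 1590 in hlOSM. Fibroblast markers (8 genes) ranged from 2110 to 2885 and macrophage markers (8 genes) from 343 to 444 over all libraries. No marker of any list was at 0 throughout a condition, but some were near 0. The limit for testing was reached by 6 of the 8 macrophage and 7 of the 8 smooth muscle and pericyte markers. With hlOSM, 7 of 8 cardiomyocyte and 6 of 7 smooth muscle and pericyte markers tested were lowered, and 0 of either list were raised. Of 8 endothelial markers 6 were raised and 0 lowered, where 18.2% of all genes tested were raised and 19.8% lowered. Within the fibroblast and macrophage sums single genes moved in opposite directions. With hlOSM 3 fibroblast markers were raised, among them Col3a1 (log2 fold change 1.04, adjusted p = 5.37e-07), and 5 were lowered, among them Col1a2 (-0.98, adjusted p = 9.46e-09), and of 6 macrophage markers tested Cd68 was raised (1.28, adjusted p = 1.49e-06) and 2 were lowered. The part of these cell types in the values of the clock genes was not tested, and in such bulk samples fewer cells of a type and less RNA per cell cannot be told apart.

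Clock genes that differed from PBS were all lower, and none of the 10 was raised by any cytokine. With mLIF, Per3 alone passed the threshold (1 of 10 genes), where 9.91% of all genes tested passed and 4.44% were lowered. With mOSM, Per2, Per3 and Nr1d2 were lowered (3 of 10), against 31.2% of all genes called and 15.8% lowered. With hlOSM, Per2, Per3, Nr1d2, Cry1 and Cry2 were lowered (5 of 10), against 37.9% called and 19.8% lowered, and the calls of Cry1 and Cry2 depended on single libraries. Read against the shares called in either direction, the clock genes were called about as often as other genes with mLIF and mOSM. The same held with hlOSM once the replicate number was a block, where Cry1 and Cry2 were lost (3 of 10, against 31.2% of all genes called in that fit). In the main fit the shares lowered (10%, 30% and 50% of the 10 genes) were above those of all genes lowered. The share of all genes lowered in the block fit was not counted. The 10 genes were chosen with earlier results of these data known, so that these shares are no test of the set. Over the 10 genes, the median log2 fold change came to -0.04 for mLIF, -0.17 for mOSM and -0.19 for hlOSM, while that of all genes tested lay within 0.01 of 0. These comparisons share their PBS libraries. The test was limma on log2(normalized count + 1) with all 12 libraries in a single fit, two-sided, and a gene was called when its p, adjusted by Benjamini-Hochberg over the 13184 genes, was under 0.05. Fold changes are on this log2 scale throughout.

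**Figure D1:**
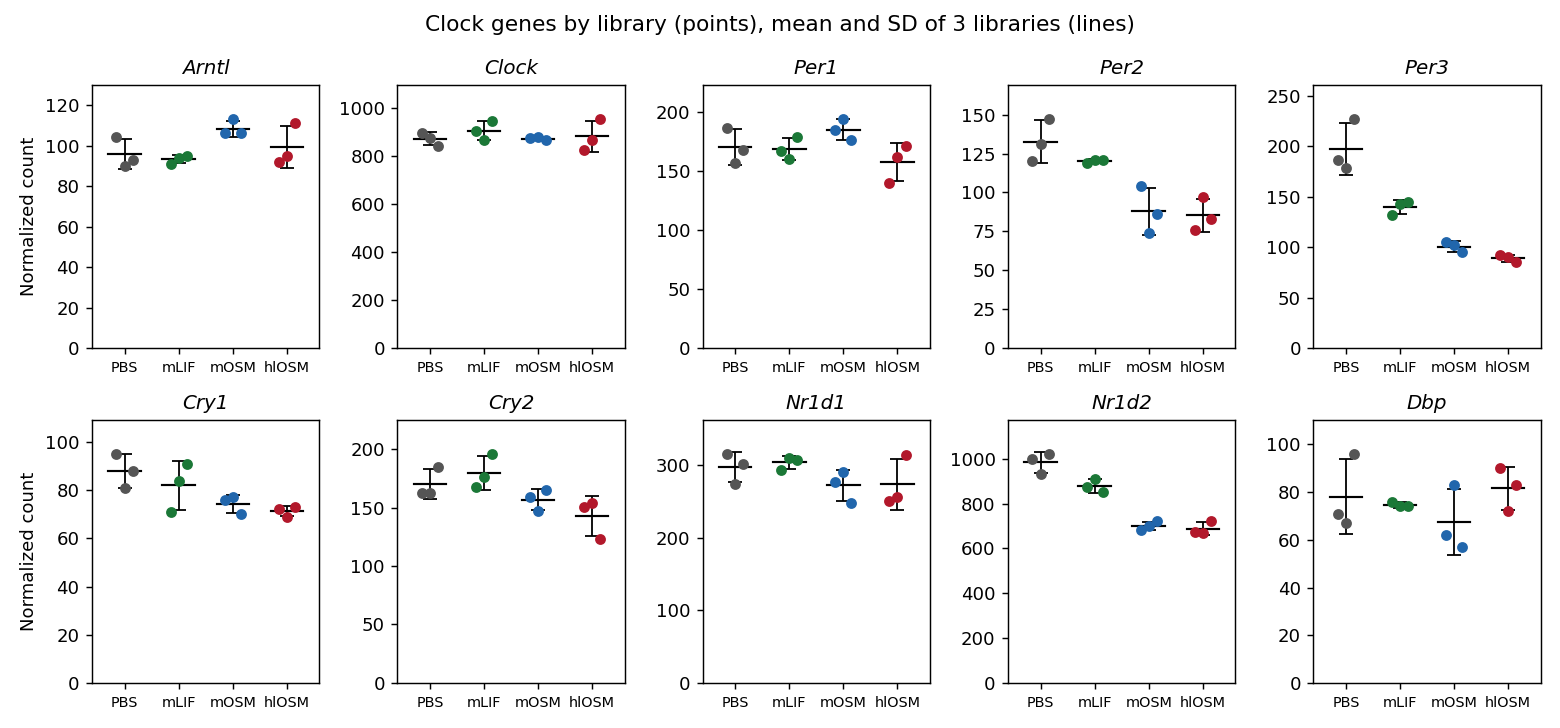
Normalized counts of the 10 clock genes in each of the 12 libraries, by condition, with the mean and SD of 3 libraries; each panel has its own linear axis from 0. Per3 steps down from 179 to 227 in PBS to 85 to 92 in hlOSM, and Per2 and Nr1d2 are lower with mOSM and hlOSM. Arntl, Clock, Per1, Nr1d1 and Dbp did not pass the threshold against PBS.

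Arntl and Clock, which encode the activating heterodimer, did not pass the threshold in any comparison. Arntl (chr7:113207465-113314126, mm10, plus strand) had normalized counts of 104, 90 and 93 in PBS, 91, 94 and 95 in mLIF, 106, 113 and 106 in mOSM, and 92, 95 and 111 in hlOSM. Its mOSM libraries were all above the PBS libraries, by 0.18 on the log2 scale (95% confidence interval -0.02 to 0.38, adjusted p = 0.165), whereas its mLIF and hlOSM libraries overlapped them. Clock (chr5:76209868-76304792, minus strand) had 899, 878 and 844 in PBS, 908, 868 and 947 in mLIF, 875, 879 and 867 in mOSM, and 826, 869 and 955 in hlOSM. These ranges overlapped in every comparison. The confidence intervals of the log2 fold change of Clock against PBS were -0.06 to 0.17 with mLIF, -0.12 to 0.12 with mOSM and -0.10 to 0.13 with hlOSM, which bounds any change of this transcript more tightly than that of Arntl.

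The period genes, whose proteins form the repressing complex with CRY, divided. Per3 was lowered by all 3 cytokines, Per2 by mOSM and hlOSM, and Per1 by none. Per3 (chr4:151003652-151044665, minus strand) had normalized counts of 187, 179 and 227 in PBS, 132, 143 and 145 in mLIF, 105, 102 and 95 in mOSM, and 92, 90 and 85 in hlOSM. The 4 conditions did not overlap, and every library of a condition was below every library of the one before it in this order. The mean was 198 ± 25.7 (SD, n = 3) under PBS, 140 ± 7.0 under mLIF, 101 ± 5.13 under mOSM and 89.0 ± 3.61 under hlOSM. With mLIF, Per3 fell by 28.7% (log2 fold change -0.49, SE 0.09, adjusted p = 0.0020). With mOSM it fell by 48.6% (-0.96, SE 0.09, adjusted p = 4.93e-08), and with hlOSM it fell by 54.5% (-1.14, SE 0.09, adjusted p = 2.78e-09). Per3 had the largest change of the 10 genes in each of the comparisons with PBS, and its calls held in all 21 alternatives, with log2 fold changes of -0.56 to -0.38 for mLIF, -1.03 to -0.86 for mOSM and -1.20 to -1.03 for hlOSM.

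The upstream region of Per3 is printed because it is the gene with the largest change, and because it held a pair of matches to a D-box. Sequences are 5′ to 3′ on the strand of the gene, from RefSeq start sites on GRCm38.p6, the assembly of mm10, without bases of annotated exons. Capitals mark TTATGTAA, a D-box of the kind bound by DBP, TEF and HLF, at 205 and 158 bases before the start site. The window is chr4:151044666-151044915 on the minus strand.

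Per3: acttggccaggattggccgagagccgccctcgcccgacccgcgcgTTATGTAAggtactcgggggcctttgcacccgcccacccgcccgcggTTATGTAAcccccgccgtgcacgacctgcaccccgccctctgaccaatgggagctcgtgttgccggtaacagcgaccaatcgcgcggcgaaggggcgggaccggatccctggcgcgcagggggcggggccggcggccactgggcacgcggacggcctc

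Of the 250-base windows before 32851 annotated starts, 0.819% held TTATGTAA on either strand. Windows were given for 9 of the 10 clock genes, all but Per2, with 13 windows in total, and Per3 was the only one of the 9 genes with these letters. The variant TTACGTAA, in 0.113% of all windows, and the cAMP response element TGACGTCA, in 1.55%, were in none of the 13. A match of letters is a description of the sequence and does not show that a factor was bound. The motif hits named here and below share no bases with each other.

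Per2 (chr1:91415982-91459324, minus strand) had normalized counts of 120, 131 and 147 in PBS, 119, 121 and 121 in mLIF, 104, 74 and 86 in mOSM, and 76, 97 and 83 in hlOSM. The mLIF libraries lay within the lower part of the PBS range or 1 count below it, while all mOSM and hlOSM libraries were below both. Against PBS, Per2 fell by 33.8% with mOSM (log2 fold change -0.60, SE 0.12, adjusted p = 0.000413) and fell by 35.5% with hlOSM (-0.63, SE 0.12, adjusted p = 0.000171). With mLIF the value was -0.13 (95% confidence interval -0.38 to 0.11, adjusted p = 0.498). Per1 (chr11:69095217-69109960, plus strand), the period gene that is known to respond fast to glucocorticoid and cAMP signals, had 187, 157 and 168 in PBS, 167, 160 and 179 in mLIF, 185, 194 and 176 in mOSM, and 140, 162 and 171 in hlOSM. Every cytokine overlapped PBS, with log2 fold changes of -0.01 for mLIF, 0.12 for mOSM and -0.11 for hlOSM (SE 0.09, lowest adjusted p = 0.316).

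Cryptochromes, the main repressors of the heterodimer, were lowered with hlOSM, at the edge of the threshold. Cry1 (chr10:85131700-85185064, minus strand) had normalized counts of 95, 81 and 88 in PBS, 71, 84 and 91 in mLIF, 76, 77 and 70 in mOSM, and 72, 69 and 73 in hlOSM. Its mOSM and hlOSM libraries were all below the PBS libraries, whereas the mLIF libraries spread over both. The log2 fold change was -0.30 with hlOSM (SE 0.11, adjusted p = 0.0357), -0.24 with mOSM (adjusted p = 0.101) and -0.11 with mLIF (adjusted p = 0.580). The hlOSM call was lost in 6 of 21 alternatives, without PBS replicate 1 or 3, without any 1 of the hlOSM libraries, and with the replicate number as a block (adjusted p = 0.0843), and the mOSM value passed with quantile scaling (adjusted p = 0.0491).

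Cry2 (chr2:92403646-92434043, minus strand) had 163, 163 and 185 in PBS, 168, 176 and 196 in mLIF, 159, 147 and 165 in mOSM, and 151, 154 and 123 in hlOSM. The hlOSM libraries were below all others of PBS and mLIF, and the lowest of them was replicate 3. Cry2 fell by 16.4% with hlOSM against PBS (log2 fold change -0.26, SE 0.09, adjusted p = 0.0314), and its values were -0.12 with mOSM (adjusted p = 0.369) and 0.08 with mLIF (adjusted p = 0.634). Without PBS replicate 3 or hlOSM replicate 3 the hlOSM call was lost, with an adjusted p of up to 0.200 and a log2 fold change as small as -0.16, and the replicate block gave an adjusted p of 0.0588. Of the exonic bases of Cry2, 4.67% lie under an annotated transcript on the opposite strand.

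Upstream of Cry1, whose E-boxes are a textbook example of clock control, the letters CACGTG stood 60 bases before the start site, and CACGTT, on the other strand, 79 bases before it. Both are in capitals, the latter as its complement, in the window chr10:85185065-85185304, minus strand.

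Cry1: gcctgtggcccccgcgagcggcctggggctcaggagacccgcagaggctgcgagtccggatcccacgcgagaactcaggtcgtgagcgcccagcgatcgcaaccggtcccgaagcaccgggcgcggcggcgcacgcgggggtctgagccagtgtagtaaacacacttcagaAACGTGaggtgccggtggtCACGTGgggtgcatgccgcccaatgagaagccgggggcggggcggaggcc

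CACGTG was found in 6.02% and CACGTT in 3.85% of all windows, on either strand. Among the clock genes CACGTG was also in a window of Per1 (166 bases before its start), and CACGTT in windows of Cry2 (166 bases) and Nr1d1 (28 bases). Whether these letters go with the changes of the genes was not tested.

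The REV-ERB genes divided as well, with Nr1d2 lowered by both OSM variants and Nr1d1 not passing. Nr1d2 (chr14:18204054-18239127, minus strand), which encodes REV-ERB beta, had normalized counts of 999, 931 and 1021 in PBS, 873, 910 and 852 in mLIF, 684, 700 and 720 in mOSM, and 674, 670 and 720 in hlOSM. The PBS, mLIF and mOSM libraries did not overlap, and the hlOSM libraries overlapped those of mOSM alone. Nr1d2 fell by 28.6% with mOSM (log2 fold change -0.49, SE 0.05, adjusted p = 3.02e-07) and fell by 30.0% with hlOSM (-0.51, SE 0.05, adjusted p = 9.75e-08). With mLIF its log2 fold change did not pass the threshold (-0.16, SE 0.05, adjusted p = 0.0549). This mLIF value passed in 6 of 21 alternatives, namely the filter at 50, trimmed-mean scaling, the fit of the libraries compared only, and without PBS replicate 2, mOSM replicate 3 or hlOSM replicate 3. Its window, chr14:18239128-18239356 on the minus strand, is printed as that of the gene with the smallest error among those lowered. It held AGGTCA, the core of the element shared by REV-ERB and ROR receptors, 77 bases before the start site.

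Nr1d2: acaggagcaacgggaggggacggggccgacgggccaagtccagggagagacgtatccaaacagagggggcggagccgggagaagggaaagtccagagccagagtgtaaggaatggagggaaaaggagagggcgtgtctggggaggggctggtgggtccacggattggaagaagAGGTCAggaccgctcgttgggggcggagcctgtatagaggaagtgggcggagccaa

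AGGTCA was in 14% of all windows on either strand, and among the clock genes also in windows of Clock (119 bases before the start) and Per1 (137 bases). A part of this element in the changes was not tested.

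Nr1d1 (chr11:98767932-98775333, minus strand), which encodes REV-ERB alpha, had 315, 274 and 301 in PBS, 293, 310 and 307 in mLIF, 277, 290 and 248 in mOSM, and 250, 256 and 314 in hlOSM. Every cytokine overlapped PBS, while the mLIF libraries all lay above those of mOSM, and hlOSM replicate 3 stood with the PBS libraries rather than with the other hlOSM libraries. The log2 fold change was -0.13 with mOSM (95% confidence interval -0.30 to 0.04, adjusted p = 0.261) and -0.12 with hlOSM (-0.29 to 0.05, adjusted p = 0.255). Without hlOSM replicate 3 the hlOSM value was -0.23 and passed (adjusted p = 0.0292). Of the exonic bases of Nr1d1, 263 (8.55%) lie under Thra, the thyroid hormone receptor alpha gene on the opposite strand. Thra fell with all 3 cytokines (log2 fold change -0.27 with mLIF, adjusted p = 0.0441, -0.46 with mOSM, adjusted p = 0.000210, and -0.51 with hlOSM, adjusted p = 4.75e-05), and its mLIF call was lost with the replicate block (adjusted p = 0.0809). The strand setting of the counting is not stated, and reads lying on both genes were left out by the authors. A share of Thra in the Nr1d1 values was not tested.

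Dbp (chr7:45705088-45710203, plus strand), an output of the heterodimer that usually has one of the steepest daily rhythms, had 71, 67 and 96 in PBS, 76, 74 and 74 in mLIF, 62, 83 and 57 in mOSM, and 90, 72 and 83 in hlOSM. Every condition overlapped PBS, and Dbp had the largest spread of the 10 genes. The 95% confidence interval of its log2 fold change was -0.34 to 0.25 with mLIF, -0.50 to 0.08 with mOSM and -0.22 to 0.37 with hlOSM, so that a fall as large as that of Cry1 with hlOSM lay inside the intervals for mLIF and mOSM. Of its exonic bases, 539 (18.0%) lie under Sphk2, a sphingosine kinase gene on the opposite strand, which rose with hlOSM (log2 fold change 0.42, adjusted p = 0.0107). Dbp and Per1 each had a window with TTCNNNGAA, the spaced palindrome bound by STAT factors (99 and 210 bases before the start), which was found in 7.02% of all windows. In the Dbp window only the first 91 bases come before annotated exon bases, so that its match lies inside an annotated exon.

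**Figure D2:**
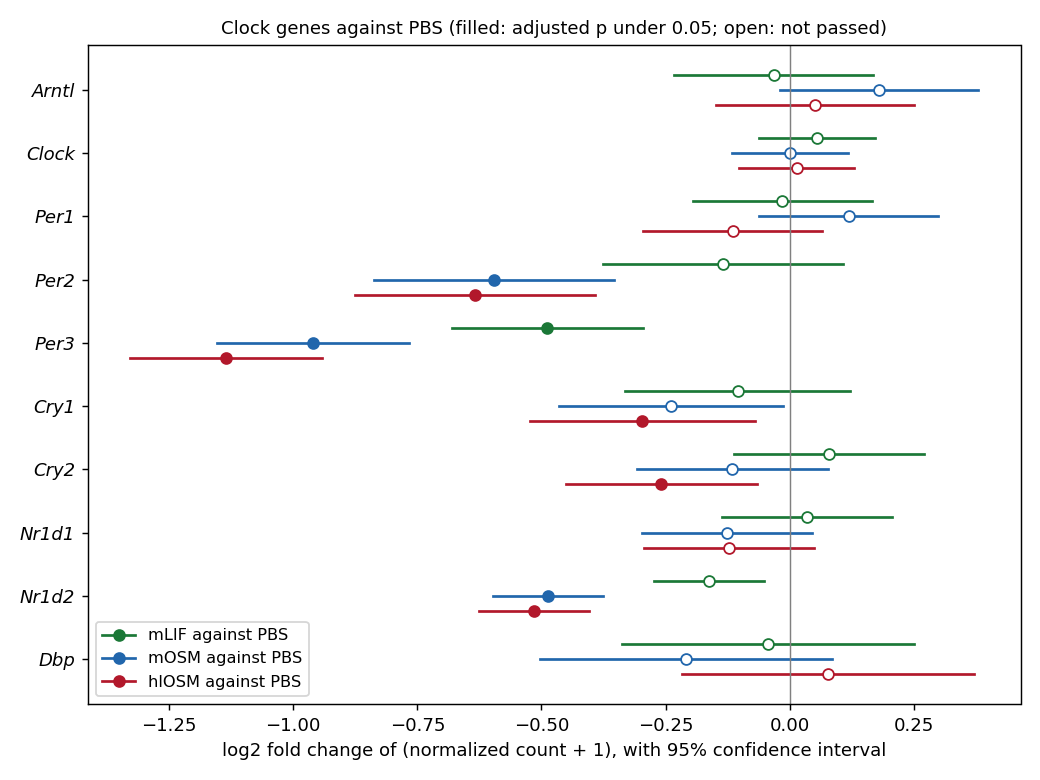
Log2 fold change of (normalized count + 1) of the 10 clock genes against PBS for mLIF, mOSM and hlOSM, with 95% confidence intervals from limma; filled points have an adjusted p under 0.05. Per3 is at -0.49, -0.96 and -1.14, Per2 and Nr1d2 are filled for mOSM and hlOSM, and all points of Arntl, Clock, Per1, Nr1d1 and Dbp are open.

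Between cytokines, 4 of the 5 genes lowered by hlOSM against PBS were also lower than with mLIF, and Cry1 did not pass (log2 fold change -0.19, adjusted p = 0.263). Against mLIF, mOSM lowered Per2, Per3 and Nr1d2 (3 of 10, against 11.8% of all genes called and 5.76% lowered). hlOSM lowered the same 3 genes and Cry2 (4 of 10, against 16.6% called and 9.22% lowered). From mLIF to mOSM Per3 fell by 27.9% (log2 fold change -0.47, adjusted p = 0.00119), and from mLIF to hlOSM it fell by 36.2% (-0.65, adjusted p = 2.66e-05). Nr1d2 fell by 20.1% from mLIF to mOSM (-0.32, adjusted p = 0.000180) and fell by 21.7% to hlOSM (-0.35, adjusted p = 5.25e-05). Per2 fell by 27.3% to mOSM (-0.46, adjusted p = 0.00962) and fell by 29.2% to hlOSM (-0.50, adjusted p = 0.00429), and the mOSM call was lost without mOSM replicate 2, the lowest of the 12 libraries (adjusted p = 0.0703). Cry2 fell by 20.9% from mLIF to hlOSM (-0.34, adjusted p = 0.0137), which was lost without mLIF replicate 3 or hlOSM replicate 3 (highest adjusted p = 0.0904). Both of these comparisons use the same mLIF libraries.

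Between hlOSM and mOSM, which differ in the AB loop and in the use of LIFR, none of the 10 genes passed limma's test, where 0.106% of all genes did, and 1 of them, Per1, had an unadjusted p under 0.05. The share of all genes with an unadjusted p under 0.05 was not counted, here or for the interaction below. The log2 difference of hlOSM minus mOSM was -0.23 for Per1 (95% confidence interval -0.41 to -0.05, adjusted p = 0.504) and -0.18 for Per3 (-0.37 to 0.02, adjusted p = 0.705). In both genes every hlOSM library was below every mOSM library, as was so, in either direction, for 9.74% of all genes tested. The interval was -0.28 to 0.20 for Per2, -0.14 to 0.08 for Nr1d2, -0.28 to 0.17 for Cry1 and -0.33 to 0.05 for Cry2. These intervals bound the difference between the cytokines and do not show that they act alike. Whether mLIF and the step from mOSM to hlOSM differed was tested as an interaction (hlOSM minus mOSM against mLIF minus PBS). No clock gene passed, where 0.167% of all genes did, and Per3 was the gene with an unadjusted p under 0.05, with a step of -0.49 from PBS to mLIF and of -0.18 from mOSM to hlOSM (difference 0.31, 95% confidence interval 0.04 to 0.59, adjusted p = 0.360). Over any difference between the 4 conditions (F test), Per2, Per3, Cry2 and Nr1d2 passed (4 of 10, against 34.2% of all genes). Cry1, whose hlOSM value passed against PBS, had an adjusted p of 0.117 there.

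In ratios of paralogs within a library, any scaling factor shared by all genes of that library cancels. An adjustment of single genes would not cancel, and the normalization is not stated. The ratio of Per3 to Per1 normalized counts was 1.16 ± 0.177 (SD, n = 3) under PBS, 0.831 ± 0.0549 under mLIF, 0.544 ± 0.0213 under mOSM and 0.570 ± 0.0810 under hlOSM. The PBS libraries (1.00 to 1.35) were above all others and the mLIF libraries (0.790 to 0.894) above those of mOSM and hlOSM, which overlapped. Nr1d2 to Nr1d1 was 3.32 ± 0.129 under PBS, 2.90 ± 0.108 under mLIF, 2.60 ± 0.268 under mOSM and 2.54 ± 0.214 under hlOSM, and every PBS library (3.17 to 3.40) was above every library with a cytokine. Per2 to Per1 ranged from 0.642 to 0.875 in PBS and 0.676 to 0.756 in mLIF, which overlapped, and was lower in mOSM (0.381 to 0.562) and hlOSM (0.485 to 0.599). Cry1 to Cry2 overlapped in all 4 conditions, with means between 0.455 and 0.518. The ratios were not tested, and they show unequal change between the genes of a pair, not which of them moved.

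**Figure D3:**
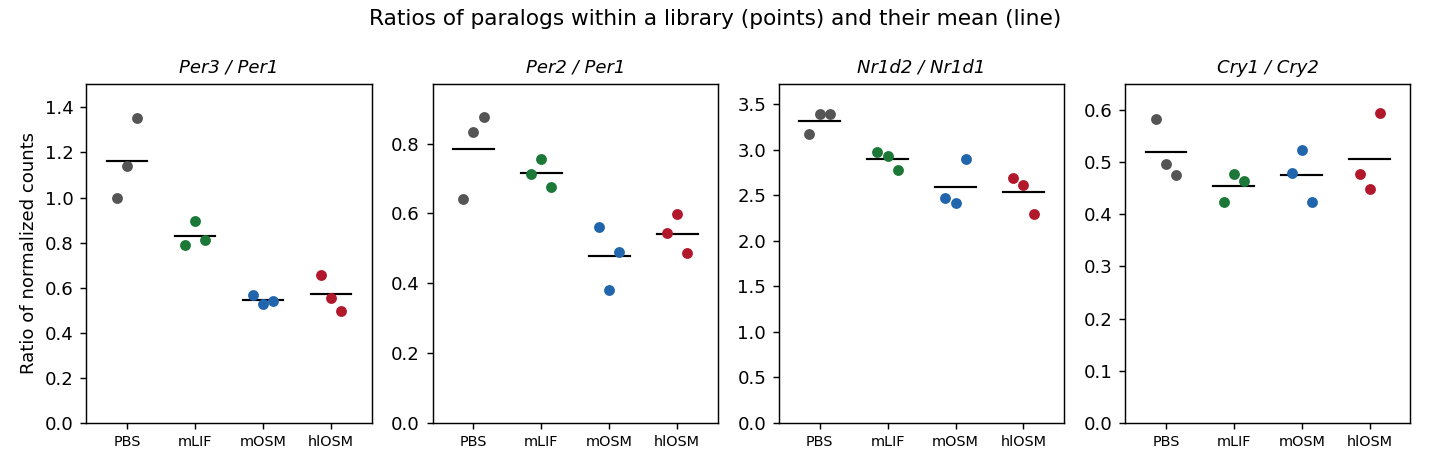
Ratio of the normalized counts of paralogs within each library, by condition, with the mean of 3 libraries as a line; each panel has its own linear axis from 0. Per3 / Per1 and Nr1d2 / Nr1d1 are highest in all PBS libraries, Per2 / Per1 is low with mOSM and hlOSM, and Cry1 / Cry2 overlaps between conditions.

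To set the levels of different genes side by side, normalized counts were divided by the exonic length. This is the length of the merged exons of all annotated transcripts of a gene, including bases shared with opposite-strand genes. The transcripts present may be shorter, so that the order between genes depends on this choice of length. Per kb of exon, the PBS level was highest for Nr1d2 (182, range 172 to 189), followed by Nr1d1 (96.4, 89.0 to 102) and Clock (63.6, 61.5 to 65.5), none of which overlapped. Per1 (30.3), Cry2 (27.0), Cry1 (26.3), Dbp (26.1), Per2 (22.7) and Per3 (20.6) followed, and each overlapped the next in this order. Arntl was last at 12.7 (12.0 to 13.8), so that Clock stood well above its partner on this scale. In hlOSM the level per kb of Per3 (9.26, range 8.85 to 9.58) was below that of Arntl (13.2, 12.2 to 14.8), whereas in PBS every Per3 library (18.6 to 23.6) was above every Arntl library. The other places at the top of the order (Nr1d2, Nr1d1, Clock) were the same in hlOSM, with 127, 88.8 and 64.4 per kb.

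**Figure D4:**
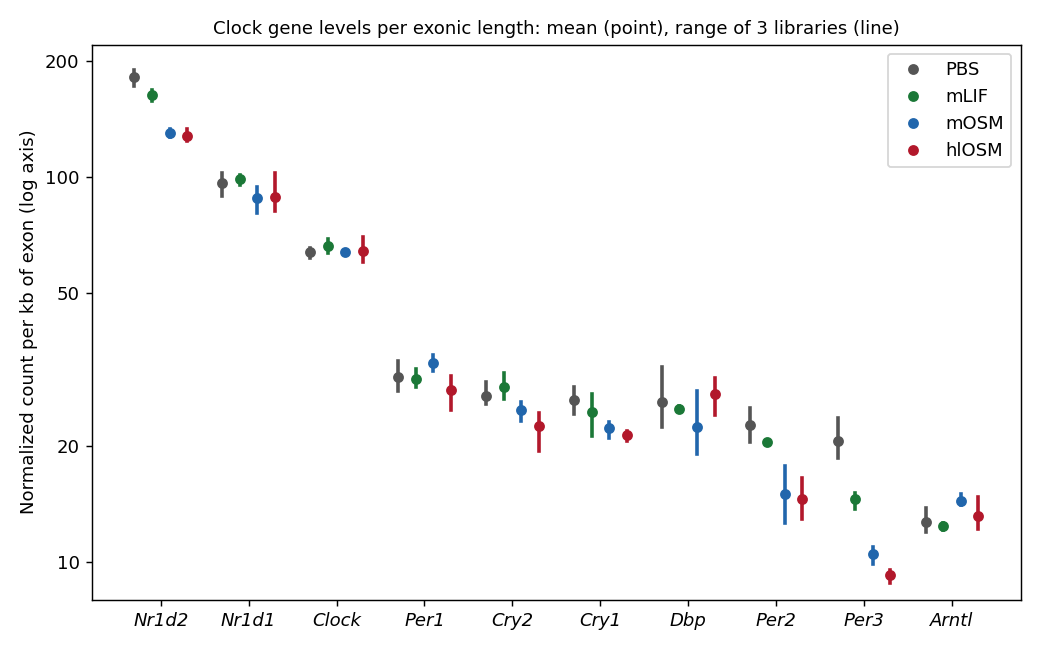
Normalized count per kb of exon (log axis) of the 10 clock genes in order of their PBS mean, with the mean (point) and range (line) of 3 libraries per condition. Nr1d2 is highest in all conditions (182 in PBS, 127 in hlOSM), and Per3 moves from 20.6 in PBS to 9.26 in hlOSM, below Arntl.

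The pattern of a clock gene over the 12 libraries was most like that of the following genes, by Pearson correlation of log2 values among 8660 other genes with a mean of at least 50. For Per3 they were Abca12 (0.995), a lipid transporter, and Ogfrl1 (0.993), and for Nr1d2 Cdc42ep3 (0.990) and the cardiac transcription factor gene Mef2c (0.989). For Per2 they were Stard8 (0.967) and Ppp1r9a (0.962), and for Cry2 Kif15 (0.950) and Zcchc8 (0.936). These values are descriptions over libraries that share their conditions and their scaling, and being the highest of many they carry no p. Mef2c, for example, had log2 fold changes of -0.29 for mLIF, -0.72 for mOSM and -0.76 for hlOSM against PBS, with an adjusted p of 0.00346, 4.83e-09 and 1.22e-09.

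The clock has further components, and 22 of them were taken as a list, of which 21 could be tested and Fbxl21 was too low. With mLIF 1 was raised and 2 were lowered, with mOSM 2 were raised and 5 lowered, and with hlOSM 3 were raised and 6 lowered, which stands against the 5.47%, 15.4% and 18.2% of all genes raised and the 4.44%, 15.8% and 19.8% lowered. The median log2 fold change of the list was -0.0055, -0.04 and -0.07. Rora and Rorb, which encode receptors that activate Arntl and compete with REV-ERB, were lowered by mOSM and hlOSM. Rora had normalized counts of 734, 735 and 853 in PBS, 641, 665 and 701 in mLIF, 593, 554 and 533 in mOSM, and 535, 544 and 525 in hlOSM, so that every library with a cytokine was below PBS. Its log2 fold change was -0.21 with mLIF (adjusted p = 0.0372), -0.46 with mOSM (5.16e-06) and -0.53 with hlOSM (6.42e-07). Rorb, at 41 to 57 in PBS and 15 to 22 in hlOSM, was low and fell, with log2 fold changes of -0.90 for mOSM (adjusted p = 0.000491) and -1.37 for hlOSM (2.58e-06). Npas2, a relative of Clock, and Arntl2 did not pass.

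Among the partners of DBP, Tef, another PAR bZIP activator of D-boxes, was lowered, and Hlf and the opposing repressor gene Nfil3 did not pass against PBS. In the F test over the 4 conditions Hlf passed (adjusted p = 0.0485), but not with the replicate block (adjusted p = 0.110). Tef had 642, 636 and 702 in PBS, 598, 610 and 592 in mLIF, 498, 455 and 482 in mOSM, and 437, 466 and 468 in hlOSM. Against PBS, its log2 fold change was -0.14 with mLIF (adjusted p = 0.135), -0.46 with mOSM (1.59e-06) and -0.53 with hlOSM (1.86e-07). Among repressors of the heterodimer outside the PER and CRY families, directions were opposed. Bhlhe41 (DEC2) had 156, 147 and 163 in PBS, 195, 206 and 221 in mLIF, 275, 277 and 253 in mOSM, and 318, 311 and 326 in hlOSM, with no overlap between conditions. It rose by 0.41 with mLIF (adjusted p = 0.000748), 0.78 with mOSM (1.62e-08) and 1.03 with hlOSM (1.63e-10) on the log2 scale, and 19.0% of its exonic bases lie under an annotated transcript on the opposite strand. Bhlhe40 (DEC1) rose by 0.36 with mOSM (adjusted p = 7.47e-05) and 0.31 with hlOSM (0.000262). Ciart (CHRONO) was low, with 36, 20 and 39 in PBS, 24, 23 and 22 in mLIF, 17, 18 and 18 in mOSM, and 9, 16 and 10 in hlOSM. Its log2 fold change was -0.75 for mOSM (adjusted p = 0.0207) and -1.35 for hlOSM (0.000126). The upstream window of Ciart, chr3:95882252-95882478 on the minus strand, is printed because it held 3 copies of CACGTG, at 116, 58 and 44 bases before the start site. Among the other clock genes, windows of Bhlhe41 (153 bases), Sirt1 (115 and 43 bases) and Tef (127 and 138 bases, in separate windows) held these letters too. Of all windows, 6.02% did.

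Ciart: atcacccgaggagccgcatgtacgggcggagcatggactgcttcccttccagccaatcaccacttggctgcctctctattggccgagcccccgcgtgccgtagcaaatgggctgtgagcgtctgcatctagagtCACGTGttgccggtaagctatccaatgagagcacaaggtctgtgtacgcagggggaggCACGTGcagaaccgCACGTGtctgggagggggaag

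Of the REV-ERB co-repressor genes, Ncor1 fell with mLIF (log2 fold change -0.20, adjusted p = 0.0111), mOSM (-0.24, 0.000776) and hlOSM (-0.28, 0.000103), and Hdac3 fell with hlOSM (-0.23, 0.0246). Of 5 genes tested for the turnover of PER and CRY, the kinase gene Gsk3b rose with hlOSM (log2 fold change 0.18, adjusted p = 0.0450), and Csnk1d, Csnk1e, Btrc and Fbxw11 did not pass. None of the PER partners Timeless, Tipin, Nono and Sirt1 passed. With replicate number added as a block, the calls of Rora with mLIF and of Gsk3b and Hdac3 with hlOSM were lost, with adjusted p between 0.0550 and 0.0696. Between hlOSM and mOSM, none of the 21 genes passed and Rorb, Bhlhe41 and Ciart had an unadjusted p under 0.05, for which the share of all genes was not counted.

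**Figure D5:**
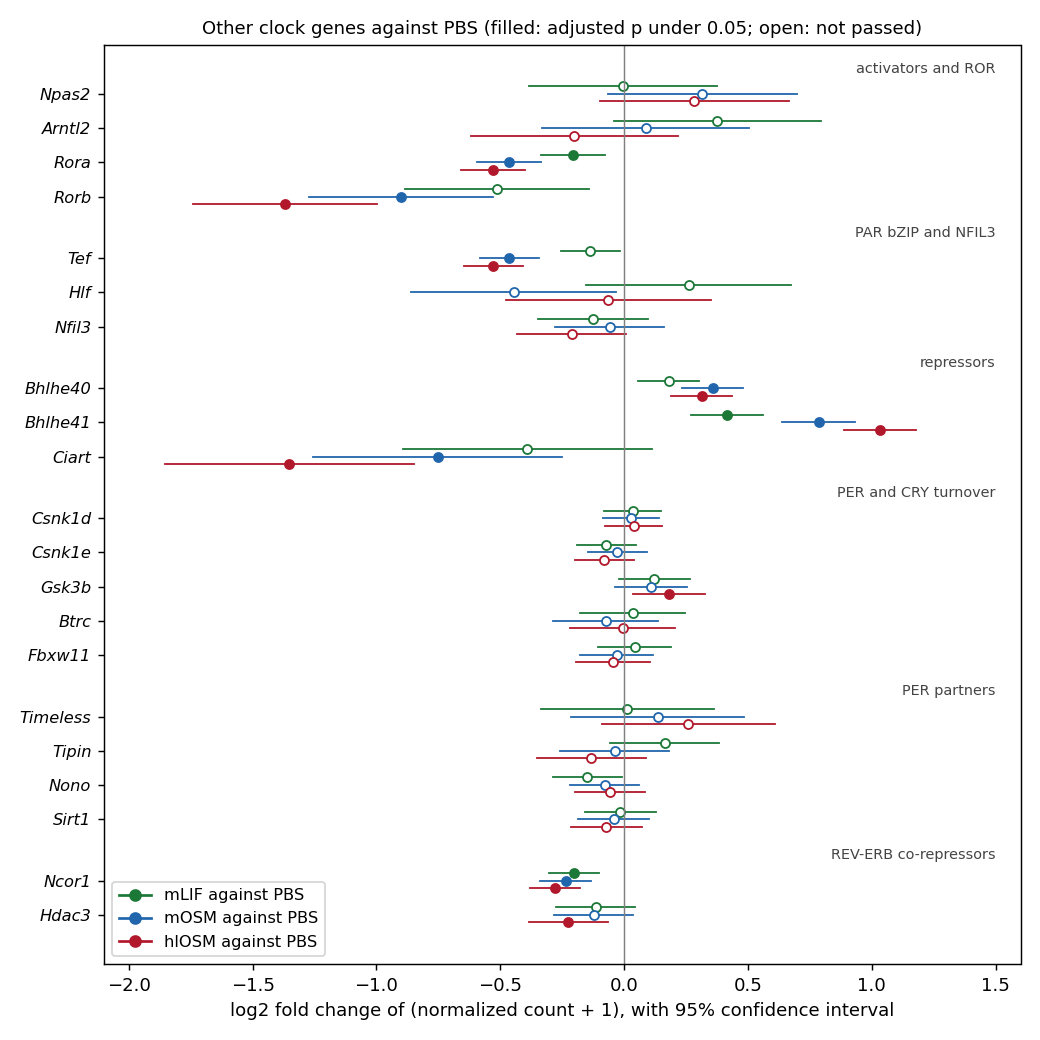
Log2 fold change of (normalized count + 1) of the 21 other clock genes tested, against PBS, for mLIF, mOSM and hlOSM, by role, with 95% confidence intervals from limma; filled points have an adjusted p under 0.05. Rora, Rorb, Tef and Ciart lie to the left for mOSM and hlOSM, Bhlhe40 and Bhlhe41 to the right, and the PER partners are open throughout.

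A list of 12 genes that are known as outputs of the clock in heart or other tissues had 2 genes lowered with mLIF, 2 raised and 6 lowered with mOSM, and 2 raised and 6 lowered with hlOSM. Of all genes tested, 4.44% were lowered with mLIF, 15.4% raised and 15.8% lowered with mOSM, and 18.2% raised and 19.8% lowered with hlOSM. This list, like the other gene lists here, was chosen with earlier results of these data known. A share above that of all genes is therefore no test of the list. The median log2 fold change was 0.02, -0.28 and -0.26. Lowered with both OSM variants were Usp2 (-0.37 and -0.43), a deubiquitinase gene, Wee1 (-0.62 and -0.72), a cell cycle kinase gene, Klf15 (-0.85 and -0.95), a factor of cardiac metabolism, Kcnip2 (-0.45 and -0.57), which encodes a potassium channel subunit, Klf9 (-0.39 and -0.51) and Tsc22d3 (-0.83 and -1.19), with adjusted p of at most 0.00750 with mOSM and 0.000946 with hlOSM. Wee1 had normalized counts of 107, 110 and 115 in PBS and 66, 73 and 62 in hlOSM, while Klf15 was at 20 to 28 in PBS and 11 to 13 in hlOSM, close to the lower limit of the test. Tspan4 (0.32 and 0.38) and the pyruvate dehydrogenase kinase gene Pdk4 (0.24 and 0.23) were raised. Nampt, Dgat2, Cdkn1a and Ucp3 did not pass.

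Because glucocorticoids and cAMP are known to set Per1 in many cells, 12 genes of these pathways were counted as well, of which Tsc22d3 and Klf9 are also on the list of outputs. With mLIF 2 were raised and 3 lowered, with mOSM 3 were raised and 4 lowered, and with hlOSM 2 were raised and 6 lowered, so that 5, 7 and 8 of the 12 passed, where 9.91%, 31.2% and 37.9% of all genes did. The choice of this list with earlier results known limits these shares in the same way. With the replicate block, 1 was raised with mLIF and 4 were lowered with hlOSM, the lost calls being Crem with mLIF (adjusted p = 0.0672) and Creb1 (0.0766) and Sik1 (0.0502) with hlOSM. Tsc22d3 (GILZ), a glucocorticoid target, had 130, 126 and 158 in PBS, 93, 101 and 92 in mLIF, 74, 74 and 83 in mOSM, and 65, 60 and 54 in hlOSM, and was lowered by all 3 cytokines (adjusted p = 0.00366 with mLIF). Zbtb16 was lowered by all 3 as well (-0.34, -0.29 and -0.44, highest adjusted p = 0.0184). Sgk1 (0.35, 0.58 and 0.59) and Crem (0.44, 0.63 and 0.57) were raised by all 3 (highest adjusted p = 0.0235). Fkbp5, a further glucocorticoid target, did not pass (-0.22, -0.21 and -0.19, lowest adjusted p = 0.237). Dusp1, a phosphatase gene, was lowered with hlOSM (-0.41, adjusted p = 0.0227), as was the kinase gene Sik1 (-0.21, adjusted p = 0.0259). Creb1, which encodes the cAMP-responsive factor CREB, was lowered with mOSM (-0.21, adjusted p = 0.0191) and hlOSM (-0.17, adjusted p = 0.0442), and the gene of its coactivator Crtc2 was raised with mOSM (0.39, adjusted p = 0.00724). Crtc1 and Crtc3 did not pass.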

How the data were processed

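Primary cardiomyocytes were treated for 24 h, and RNA of 3 libraries per condition was sequenced. Reads were trimmed by the authors, aligned to mm10 with STAR 2.7.7a and counted with featureCounts 1.6.5 (versions per the submitters' processing notes), where a read had to touch exons of 1 gene alone. The deposited values are scores on a normalized count scale, which the authors scaled between libraries and rounded, and neither the normalization nor the strand setting is stated. Since they are no read counts, count models were not used and no counting error was attached to them. Library totals on this scale were 2745748 to 2911891.

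The sample titles gave condition and replicate number. Testing used limma 3.58.1 under R 4.3.3 (lmFit, eBayes with trend) on log2(value + 1), with 12 libraries in a single fit without a block. The 13184 genes tested had a value of 10 or more in 3 or more libraries, and p-values were adjusted over them by the Benjamini-Hochberg method. The clock genes and the gene lists were chosen with earlier results of these data known, and some genes first listed are not reported here. Named are all 10 clock genes, other listed clock, output and glucocorticoid or CREB genes that passed the threshold or complete a group, genes sharing exonic bases with a clock gene, and, for clock genes passing the F test, the 2 genes most like each over the 12 libraries. The 3 markers of other cells named singly were chosen after their values were seen. Of the identifiers, 22876 of 22915 were found in the GENCODE annotation used for exonic lengths and overlaps, which held the coordinates of all 10 clock genes as in the table. Upstream sequences are from RefSeq on GRCm38.p6, and motifs were searched on both strands of the 250 bases before each start site. As alternatives, the pseudocount was 0.1 or 5, the filter was dropped or set to 50, values were rescaled by trimmed mean or quantiles, the fit was robust or held only the libraries compared, the replicate number was a block, and each library was left out in turn.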

Additional observations from a re-analysis of the deposited data

How the results depend on the processing

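All alternatives named with the processing were run for the counts of clock genes and for each of the 10 genes. The calls of Per3 in all comparisons with PBS or mLIF, of Nr1d2 with mOSM and hlOSM in both, and of Per2 with mOSM and hlOSM against PBS and with hlOSM against mLIF were made under every alternative. With mLIF against PBS, 1 clock gene passed, and 2 with the filter at 50, with trimmed-mean scaling and with the libraries compared only, Nr1d2 being the gene added. With single libraries left out this count was 1 to 2. With hlOSM against PBS, 5 passed, 3 with the replicate block, and 3 to 5 with libraries left out (3 without PBS replicate 3). Of the other clock genes, 3 passed with mLIF, 5 with the libraries compared only, and 1 to 5 with libraries left out (5 without PBS replicate 1, 1 without PBS replicate 3 or mLIF replicate 1). The cause of these changes was not tested.

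Same-numbered libraries tended to deviate in opposite directions from their condition means. Over 6626 genes with a mean of at least 100, the correlation of deviations lay between -0.518 and 0.022 in the 18 same-numbered pairs, with 0 pairs over 0.1, and between -0.12 and 0.48 in the 36 differently numbered pairs. The share of the variance inside conditions that went with the replicate number was 5.86%, against 25% for independent libraries, so that the deposited values differ less between numbers than independent libraries would. Whether differences between replicate numbers were removed in the normalization is not stated. The main fit, without a block, counts the libraries as independent, so that its p-values may be too small. The replicate block changed no call of a clock gene other than the hlOSM calls of Cry1 and Cry2 against PBS and that of Cry2 in the F test (adjusted p = 0.0641).

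Signs of small values turned when single libraries were left out, in 26 fits over 16 results, none of which passed the threshold in either fit. On the log2 scale, Clock ranged from -0.024 to 0.021 with mOSM and from -0.044 to 0.061 with hlOSM against PBS, from -0.098 to 0.0062 for hlOSM against mLIF, from -0.044 to 0.060 for hlOSM against mOSM and from -0.099 to 0.0057 in the interaction. Arntl ranged from -0.075 to 0.028 with mLIF and from -0.030 to 0.11 with hlOSM, and Per1 from -0.073 to 0.053 with mLIF. Dbp ranged from -0.14 to 0.11 with mLIF and from -0.022 to 0.23 with hlOSM. Nr1d1 ranged from -0.022 to 0.078 with mLIF, from -0.099 to 0.064 for hlOSM against mOSM and from -0.13 to 0.031 in the interaction. Per2 ranged from -0.15 to 0.089 for hlOSM against mOSM and from -0.019 to 0.22 in the interaction, and Cry1 from -0.052 to 0.13 in the interaction. With 3 libraries per condition at 1 time point and an unknown depth behind each value, small differences were not detectable.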
